A study of Homo sapiens with 5 samples.

Results

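The genes described are 31 integrin and laminin chain genes of KGN cells, an established human line that was grown out of an ovarian granulosa cell tumour. They were chosen by gene symbol: 21 integrin genes (13 alpha and 8 beta chains) and 10 laminin genes (5 alpha, 3 beta and 2 gamma chains). All 31 were found among the 35453 gene names of the deposited table, and 28 of them, 19 integrins and 9 laminins, reached 20 scaled counts in any of the 5 libraries (estimated read counts summed over a gene's transcripts and scaled to the mean library size), against 15252 genes of the whole table. Only these 28 have ratios here; ITGA8, ITGB7 and LAMC3 stayed below that level.

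Polyadenylated RNA was sequenced from 5 groups of KGN cells with 1 library each, to ask what each signalling pathway downstream of the gonadotropins does in granulosa cells. FSH cells received follicle-stimulating hormone at 100 ng/mL. FSK cells received forskolin, which raises cyclic AMP and activates protein kinase A. SC79 cells received the protein kinase B (Akt) activator SC79 at 4 µg/mL, and PMA cells received phorbol myristate acetate, an activator of protein kinase C. Control cells are titled as not treated, while the written protocol adds ethanol to them. The treatment labels give 10 mmol/L FSK and 0.1 mmol/L PMA, whereas the protocol has a symbol that stands for micro, hence 10 and 0.1 µmol/L. All 5 groups, control included, spent 24 h in medium with charcoal-stripped serum and androstenedione at 100 nmol/L, an androgen that granulosa cells convert to oestrogen. Each library was made from 270 ng of RNA, pooled as 90 ng from each of 3 cultures grown in different weeks. With 1 library a group, no difference below has a replicate check, and every interval covers counting error alone.

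Integrins are cell surface receptors built of an alpha and a beta chain, which bind the extracellular matrix outside the cell and the actin or keratin skeleton inside it. Laminins are the main sheet-forming proteins of basement membranes, each a trimer of an alpha, a beta and a gamma chain, and several integrins are their receptors. In the ovarian follicle, granulosa cells rest on a basal lamina that holds laminins and type IV collagen, and they carry integrins that bind it.

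The libraries held 50253128 (SC79, the lowest) to 58849719 (control, the highest) estimated counts. Of 15 granulosa markers, 14 reached 20 scaled counts in some library and 12 in all 5; the other marker, WT1, was at 0 in FSH cells, 0 in FSK cells, 1.06 in SC79 cells, 0 in PMA cells and 0.918 in control cells. Theca markers were below 20 scaled counts (0 of 3 reached it), as were 5 of 6 oocyte markers. Of 6 endothelial markers 4 reached it. The summed level of the 6 was 1358 scaled counts in PMA cells, 457 in FSH cells, 412 in FSK cells, 344 in SC79 cells and 384 in control cells. PECAM1 had 648 in PMA cells and 109 in control cells, TIE1 349 and 35.3, and VWF 238 and 98.3. KDR was lower in PMA cells, with 104 and 139. CDH5, the cadherin that defines endothelium, had at most 2.0. Of 7 immune markers 3 reached it, with a summed level of 2237 in PMA cells, 902 to 1128 in FSH, FSK and SC79 cells and 865 in control cells, nearly all of it CD68. PTPRC, the leukocyte marker of the list, had 37.6 to 53.9 scaled counts. CD3E, which defines T cells, was at 0 in all 5. Of 6 epithelial markers 4 reached it, with sums of 3668 to 5367. The part of the endothelial and immune markers in the PMA results was not tested.

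The levels of the 31 genes spanned more than 4 orders of magnitude once divided by the length of each gene's most abundant coding transcript, in scaled counts per kilobase. ITGB1, the beta chain shared by the largest group of integrins, stood first in every library, with 38687 in FSH cells, 57734 in FSK cells, 35816 in SC79 cells, 49811 in PMA cells and 39323 in control cells. ITGA3, the alpha chain of a laminin receptor, followed at 14843 in FSH cells, 9093 in FSK cells, 15023 in SC79 cells, 19718 in PMA cells and 16272 in control cells. ITGB5, which pairs with ITGAV to bind vitronectin, had 11837 in FSH cells, 10118 in FSK cells, 13932 in SC79 cells, 13480.0 in PMA cells and 12109 in control cells. These 3 genes kept the first 3 places by mean, although in FSK cells ITGB5 and LAMC1 lay above ITGA3. Among the laminins LAMC1, the gamma chain of most laminin trimers, had the highest mean, with 8523 in FSH cells, 10023 in FSK cells, 8309 in SC79 cells, 6899.8 in PMA cells and 8503 in control cells. It was followed by LAMB1 at 6121 in FSH cells, 5315 in FSK cells, 6296 in SC79 cells, 2975 in PMA cells and 6259 in control cells, and by LAMB2 at 4223 in FSH cells, 7168 in FSK cells, 4358 in SC79 cells, 4883 in PMA cells and 4007 in control cells. The laminin alpha chains were lower: LAMA5, the most widely distributed alpha chain, had 1801 in FSH cells, 1604 in FSK cells, 1685 in SC79 cells, 823 in PMA cells and 1860.0 in control cells. LAMA4, an alpha chain of vascular and mesenchymal basement membranes, had 981 in FSH cells, 1118 in FSK cells, 1019.8 in SC79 cells, 988 in PMA cells and 890.2 in control cells. The fibronectin receptor chain ITGA5 had a mean between those of LAMC1 and LAMB1 (9105 per kilobase in PMA cells and 6861 in control cells), and ITGAV, the vitronectin receptor chain, had 4434 in PMA cells and 4026 in control cells. At the low end ITGA9, ITGB6, ITGB7, LAMC3 and ITGA8 all stayed under 7 scaled counts per kilobase in all 5 libraries. Parts of this order depend on the length used. With each transcript over its own length, ITGB5 lay above ITGA3 in all 5 libraries, at 19547 and 16858 in control cells. On that scale LAMB2 lay above LAMB1 in FSH cells, at 7445 and 7173, as well as in FSK and PMA cells. ITGB6 then reached 20.99 in FSK cells.

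**Figure D1:**
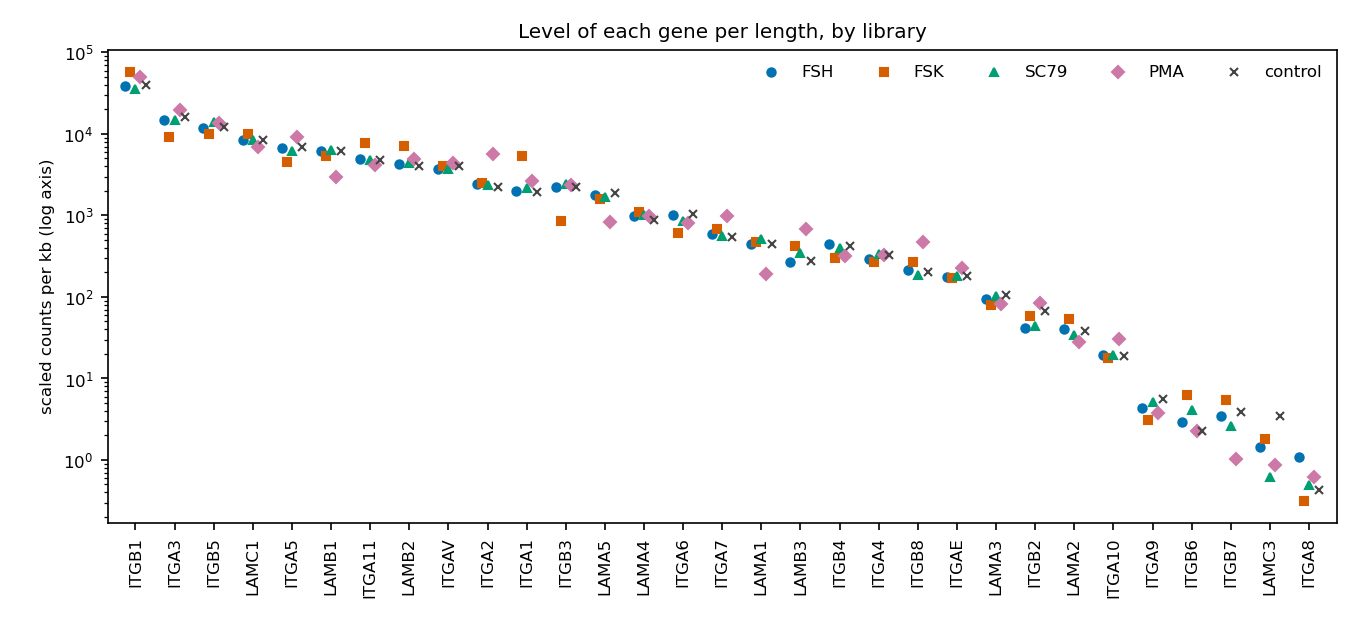
Scaled counts per kilobase (log axis) of the 31 genes, ordered by their mean, with 1 symbol per library. ITGB1 lies above every other gene in all 5 libraries; among genes with at least 100 scaled counts in any library, the ratio of the highest to the lowest library is largest for ITGB3, ITGA1, LAMA1 and LAMB3. The ITGB2 level uses a transcript of 556 bases, its most abundant coding one, which places it higher than a full-length transcript would.

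FSH and SC79 cells differed little from control cells across the whole set. With FSH, 0 of 28 genes lay 2-fold or more above control and 0 lay 2-fold or more below, where 1.12% of all 15252 genes were that far above and 0.747% below. With SC79 the counts were 0 and 0, beside 0.983% and 0.636% of all genes. At 1.5-fold 0 genes were above and 1 (ITGB2) below with FSH, beside 2.9% and 2.16% of all genes, and 1 (ITGB6) above and 1 (ITGB2) below with SC79, beside 3.09% and 2.4%; both have under 50 scaled counts in every library. Within 1.2-fold of control were 25 of the 28 genes with FSH and 24 with SC79, beside 84.8% and 82.0% of all genes. Among genes of more than 100 scaled counts, the ratio furthest from control with SC79 was that of LAMB3, the beta chain of the epidermal laminin, at 1.27-fold (95% interval 1.17 to 1.37), and after it ITGA6 at 0.810-fold (95% interval 0.779 to 0.841). With FSH the furthest was ITGA4, a receptor for fibronectin and VCAM1, at 0.885-fold (95% interval 0.820 to 0.955). The median log2 ratio was -0.01 with FSH and 0.01 with SC79, beside -0.01 and 0.00 over all genes (-0.02 and 0.00 for integrins, -0.01 and 0.01 for laminins). On the authors' deposited normalized signal, whose totals differ between libraries, all-gene medians against control shift to -0.16 with FSH, -0.16 with FSK, -0.28 with SC79 and -0.24 with PMA. The sign then turns for 12 of the 28 ratios with FSH, 3 with FSK, 13 with SC79 and 4 with PMA, all of them 0.20 or less in size on the log2 scale, so directions that small are not read here.

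**Figure D2:**
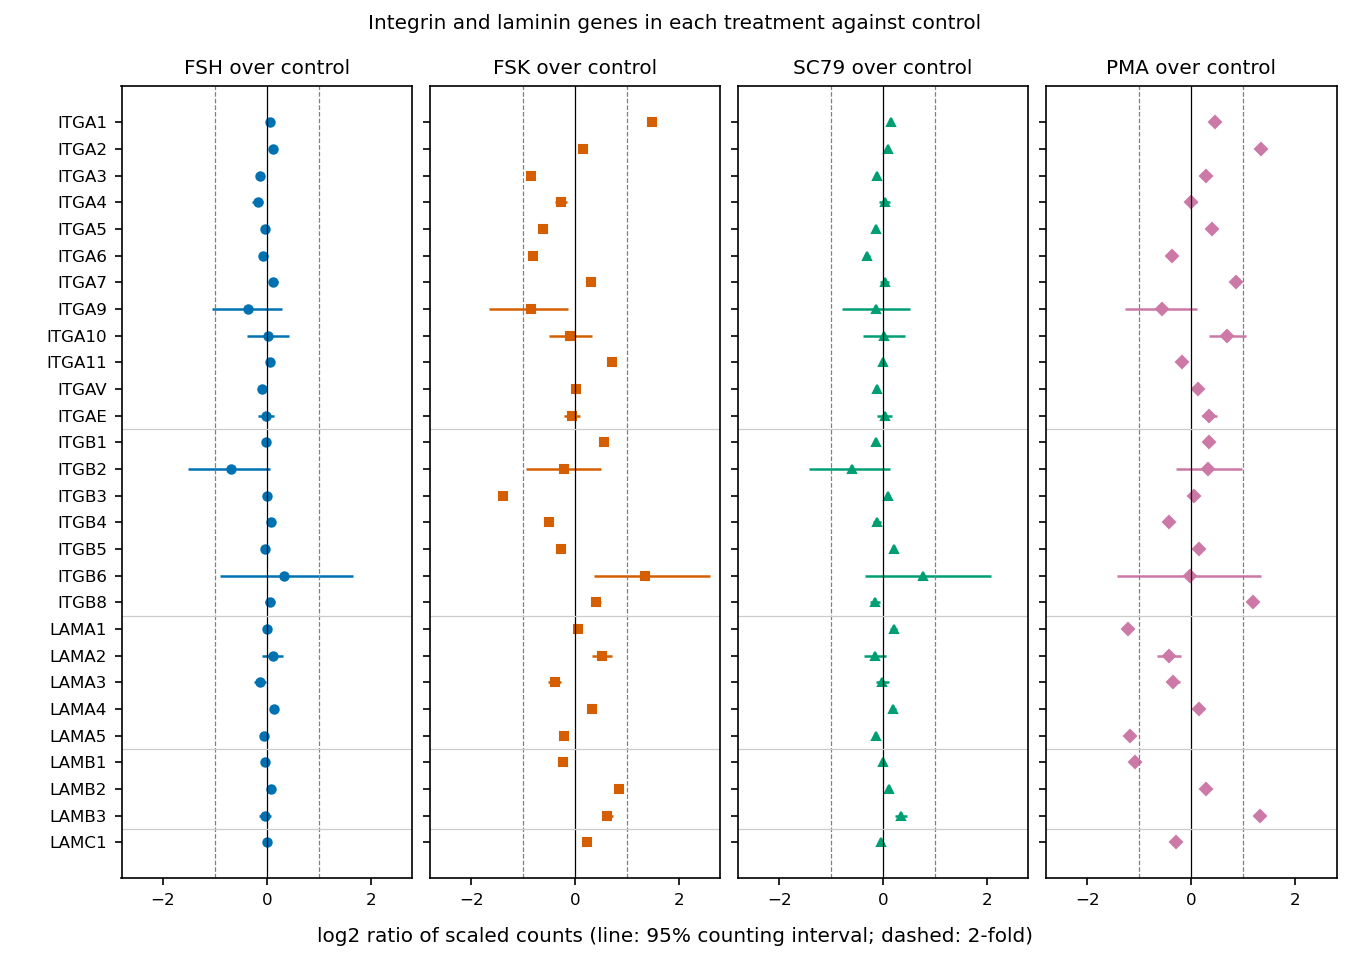
Log2 ratio of scaled counts over control for the 28 genes with ratios, in FSH, FSK, SC79 and PMA cells; horizontal lines are 95% counting intervals and dashed lines mark 2-fold. FSH and SC79 points lie within 2-fold of control, FSK points run from ITGB3 at -1.38 to ITGA1 at 1.48, and PMA points from LAMA1 at -1.23 to ITGA2 at 1.34.

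In FSK cells the collagen receptor chains ITGA1 and ITGA11 were higher and the laminin receptor chains ITGA3 and ITGA6 were lower than in control cells, while ITGB3 was the gene furthest below. With FSK 2 genes (ITGA1 and ITGB6) lay 2-fold or more above control and 1 (ITGB3) as far below, where 5.23% of all genes were that far above and 6.17% below. At 1.5-fold the counts were 5 above and 5 below, beside 11.1% and 12.2% of all genes. The median log2 ratio was -0.10 over the integrins and 0.24 over the laminins, and 0.01 over all genes. On the authors' normalized signal 2 genes were 2-fold above and 3 below, with ITGA3 and ITGA9 joining ITGB3, beside 622 and 1235 of all genes (798 and 941 here).

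ITGA1, the alpha chain of a receptor for type IV and other collagens, had 21721 in FSH cells, 57934 in FSK cells, 23119.8 in SC79 cells, 28777 in PMA cells and 20824 in control cells scaled counts. The FSK library stood above the other 4, at 2.78-fold (95% interval 2.74 to 2.83) the control level. ITGA1 lies on chromosome 5 (GRCh38, 52787896 to 52959210, plus strand). On the same strand its exons share 3.08% of their bases with the processed pseudogene AC022133.1 and 2.56% with PELO. Of the ITGA1 counts in FSK cells, 96.6% were on the coding transcript ITGA1-201. ITGA11, a receptor chain for fibrillar collagens, had 19704 in FSH cells, 30692 in FSK cells, 18870.2 in SC79 cells, 16676 in PMA cells and 18814 in control cells, which put FSK cells at 1.63-fold (95% interval 1.60 to 1.66) of control. ITGA2, the other major collagen receptor chain, was at 1.11-fold (95% interval 1.09 to 1.14), too close to control for its direction to be read. ITGA10, a collagen receptor chain of cartilage, had only 93.7 scaled counts in FSK cells and 100.5 in control cells. ITGB1, the partner of all these alpha chains, had 140821 in FSH cells, 210151 in FSK cells, 130372 in SC79 cells, 181314 in PMA cells and 143135 in control cells. FSK cells were again the highest, at 1.47-fold (95% interval 1.46 to 1.48) of control, with PMA cells next. In a bulk sample, more RNA per cell and more cells of a kind cannot be told apart.

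The laminin-binding alpha chains went the other way in FSK cells, apart from ITGA7. ITGA3 had 72552 in FSH cells, 44445 in FSK cells, 73431 in SC79 cells, 96382 in PMA cells and 79535 in control cells scaled counts, so that FSK cells were the lowest, at 0.559-fold (95% interval 0.552 to 0.565) of control. The retained-intron transcript ITGA3-204 was lower still in FSK cells, with 770.3 scaled counts in FSK cells and 3395 in control cells (log2 ratio -2.14), against -0.80 for ITGA3-202, the main coding transcript. ITGA6 had 5672 in FSH cells, 3379.7 in FSK cells, 4805 in SC79 cells, 4601 in PMA cells and 5934 in control cells; FSK cells were the lowest, at 0.570-fold (95% interval 0.546 to 0.594) of control. ITGA7, a laminin receptor chain best known from muscle, had 2351 in FSH cells, 2652 in FSK cells, 2202 in SC79 cells, 3909.5 in PMA cells and 2151 in control cells, and FSK cells lay at 1.23-fold (95% interval 1.16 to 1.30) of control. Outside the laminin binders, ITGA5, the alpha chain of the fibronectin receptor, had 29582 in FSH cells, 19998 in FSK cells, 27654 in SC79 cells, 40462 in PMA cells and 30490.4 in control cells, with FSK cells lowest and PMA cells highest.

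The transcripts of ITGA6 also differed in the end they encode. ITGA6 and ITGA3 each have a penultimate exon that, when kept, supplies the cytoplasmic tail and the stop codon (the A form), and when skipped leaves a different tail (the B form). The coding parts of these exons are shown because the split of ITGA6 counts rests on them. The capitals mark their shared opening, 15 bases that differ at 2 positions, and these coding parts lie at chr2:172501772-172501876 for ITGA6 and chr17:50088225-50088332 for ITGA3 (GRCh38, plus strand, GENCODE 29).
ITGA6: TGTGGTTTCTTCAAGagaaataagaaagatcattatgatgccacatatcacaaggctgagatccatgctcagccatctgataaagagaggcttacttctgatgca
ITGA3: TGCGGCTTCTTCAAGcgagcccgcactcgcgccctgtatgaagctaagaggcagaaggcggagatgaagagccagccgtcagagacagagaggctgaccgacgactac
The ITGA6 exon has 130 bases and the ITGA3 exon 142. Per length, transcripts with the ITGA6 exon made up 63.5% in FSH cells, 57.8% in FSK cells, 71.4% in SC79 cells, 61.2% in PMA cells and 67.9% in control cells of the ITGA6 transcripts that could be sorted. Those with the exon had 1989 scaled counts in FSK cells and 4152 in control cells, a log2 ratio of -1.06. Those without it had 1357 in FSK cells and 1730.3 in control cells, a log2 ratio of -0.35. The share was lowest in FSK cells and highest in SC79 cells, and no replicate shows how far it varies between cultures of 1 group. ITGA3 kept its exon in 99.5% to 99.8% of transcripts in all 5 libraries. For ITGA7, which has mutually exclusive exons of 120 and 132 bases in its extracellular part, the share with the 120-base exon was 59.5% in FSH cells, 53.3% in FSK cells, 52.5% in SC79 cells, 61.5% in PMA cells and 49.3% in control cells. For ITGB1, transcripts with the 81-base exon of the D form, known from muscle, made up 0.172% to 0.301%. These shares rest on the estimated division of reads among transcripts, whose error is not given in the sources used here.

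Among the beta chains in FSK cells, ITGB3, which pairs with ITGAV as a vitronectin receptor, had 9021 in FSH cells, 3454 in FSK cells, 9627 in SC79 cells, 9347 in PMA cells and 8983 in control cells scaled counts. The FSK library was the single low one, at 0.385-fold (95% interval 0.370 to 0.400) of control, and the other 4 lay within 8983 to 9627. Of its 31-base words 51.0% also occur in AC068234.1, a gene annotated over the same exons; summed with that gene, the log2 ratio with FSK is -1.39, against -1.38 for ITGB3 alone. ITGB5 had 51750.0 in FSH cells, 44234 in FSK cells, 60910.3 in SC79 cells, 58934 in PMA cells and 52940.2 in control cells, and FSK cells were the lowest at 0.836-fold (95% interval 0.825 to 0.846) of control. ITGB4, which pairs with ITGA6 in hemidesmosomes, had 2554 in FSH cells, 1696 in FSK cells, 2231 in SC79 cells, 1794 in PMA cells and 2414 in control cells; FSK cells were again the lowest, at 0.702-fold (95% interval 0.660 to 0.748). ITGB6 pairs with ITGAV to activate latent TGF-beta. It had 12.99 in FSH cells, 27.2 in FSK cells, 18.0 in SC79 cells, 9.90 in PMA cells and 10.1 in control cells scaled counts. These are too few for a firm ratio, which was 2.69-fold (95% interval 1.29 to 6.04) with FSK. Of its counts 67.7% in FSK cells and 36.4% in control cells were on coding transcripts. In the authors' deposited table its most abundant transcript had a log2 fold change of -4.98 with FSK, the opposite direction. Of its words 18.9% are shared with AC092153.1, a gene on the same strand whose transcripts the deposited table names ITGB6.

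With FSK 2 of 9 laminins lay at 1.5-fold or more above control and 0 as far below, beside 11.1% and 12.2% of all genes. LAMB2, a beta chain known from the kidney filter and the neuromuscular synapse, had 23833 in FSH cells, 40450.5 in FSK cells, 24592 in SC79 cells, 27553 in PMA cells and 22609 in control cells scaled counts. FSK cells stood above the other libraries, at 1.79-fold (95% interval 1.76 to 1.82) of control. LAMB3 was at 1.54-fold (95% interval 1.43 to 1.66), LAMA2, the alpha chain of muscle basement membrane, at 1.43-fold (95% interval 1.25 to 1.63), and LAMA4 at 1.26-fold (95% interval 1.21 to 1.30) of control. LAMA1, the alpha chain of early embryonic basement membranes, was at 1.04-fold (95% interval 1.000 to 1.09), and LAMA5 and LAMB1 at 0.862-fold and 0.849-fold. LAMA3, the alpha chain of the epidermal laminin, was the laminin furthest below control, at 0.764-fold (95% interval 0.698 to 0.835).

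In PMA cells 2 integrin genes and LAMB3 were at least 2-fold higher, and 3 laminin genes at least 2-fold lower, than in control cells. With PMA 3 genes (ITGA2, ITGB8 and LAMB3) lay 2-fold or more above control and 3 (LAMA1, LAMA5 and LAMB1) as far below, where 4.93% of all genes were that far above and 4.81% below. At 1.5-fold the counts were 5 above and 3 below, beside 10.5% and 11% of all genes. The median log2 ratio was 0.28 over the 19 integrins and -0.35 over the 9 laminins, and 0.00 over all genes. On the authors' normalized signal the integrin and laminin medians are 0.04 and -0.58; 2 genes are then 2-fold above and 3 below, ITGB8 missing the threshold at a log2 ratio of 0.96, beside 534 and 1121 of all genes (752 and 734 here).

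ITGA2, the alpha chain of a receptor for collagens and, in some cells, laminins, had 19083 in FSH cells, 19579 in FSK cells, 18734 in SC79 cells, 44379 in PMA cells and 17577 in control cells scaled counts. The PMA library was the single high one, at 2.52-fold (95% interval 2.48 to 2.57) of control. ITGB8, which like ITGB6 pairs with ITGAV to bind latent TGF-beta, had 1868 in FSH cells, 2377 in FSK cells, 1609 in SC79 cells, 4109.9 in PMA cells and 1791 in control cells, the PMA library again standing highest, at 2.29-fold (95% interval 2.17 to 2.42). ITGA7 was at 1.82-fold (95% interval 1.73 to 1.91) of control, and ITGA10 at 1.61-fold (95% interval 1.27 to 2.09). ITGA1, ITGA5 and ITGB1 lay at 1.38-fold, 1.33-fold and 1.27-fold. On the low side ITGA6 was at 0.775-fold (95% interval 0.747 to 0.805) and ITGB4, its hemidesmosome partner, at 0.743-fold (95% interval 0.700 to 0.790). ITGB3, the gene furthest below control with FSK, was at 1.04-fold (95% interval 1.01 to 1.07) with PMA.

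Among the laminin alpha chains LAMA1 had 4346 in FSH cells, 4546 in FSK cells, 5017 in SC79 cells, 1865 in PMA cells and 4363 in control cells scaled counts, and the PMA library was the single low one, at 0.427-fold (95% interval 0.405 to 0.451) of control. Of its words 9.91% are shared with an antisense gene and strand use is not stated; its coding transcript LAMA1-201 alone had 1624 in PMA cells and 4238 in control cells, a log2 ratio of -1.38. LAMA5 had 20583 in FSH cells, 18329 in FSK cells, 19257 in SC79 cells, 9399 in PMA cells and 21253 in control cells, with PMA cells at 0.442-fold (95% interval 0.432 to 0.453) of control. LAMA2 was at 0.744-fold (95% interval 0.636 to 0.870) and LAMA3 at 0.787-fold (95% interval 0.721 to 0.858). LAMA4, at 1.11-fold (95% interval 1.07 to 1.15), was too close to control for its direction to be read. In the 4 libraries other than PMA, each of a different group, LAMA1 had 4346 to 5017 and LAMA5 18329 to 21253 scaled counts, all above the PMA value.

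The beta chains split. LAMB1, the common beta chain, had 35042 in FSH cells, 30427 in FSK cells, 36044 in SC79 cells, 17031 in PMA cells and 35835 in control cells scaled counts, with PMA cells lowest at 0.475-fold (95% interval 0.467 to 0.484) of control. LAMB2 was at 1.22-fold (95% interval 1.198 to 1.24). LAMB3 had 1081 in FSH cells, 1714 in FSK cells, 1413 in SC79 cells, 2785 in PMA cells and 1112 in control cells, with PMA cells highest at 2.50-fold (95% interval 2.34 to 2.68), FSK cells next and FSH cells close to control. Its 2 main coding transcripts had similar log2 ratios with PMA, 1.34 for LAMB3-203 and 1.32 for LAMB3-201. LAMC1 had 67235 in FSH cells, 79074 in FSK cells, 65550.4 in SC79 cells, 54432 in PMA cells and 67077 in control cells, so that PMA cells were the lowest, at 0.811-fold (95% interval 0.803 to 0.821) of control.

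**Figure D3:**
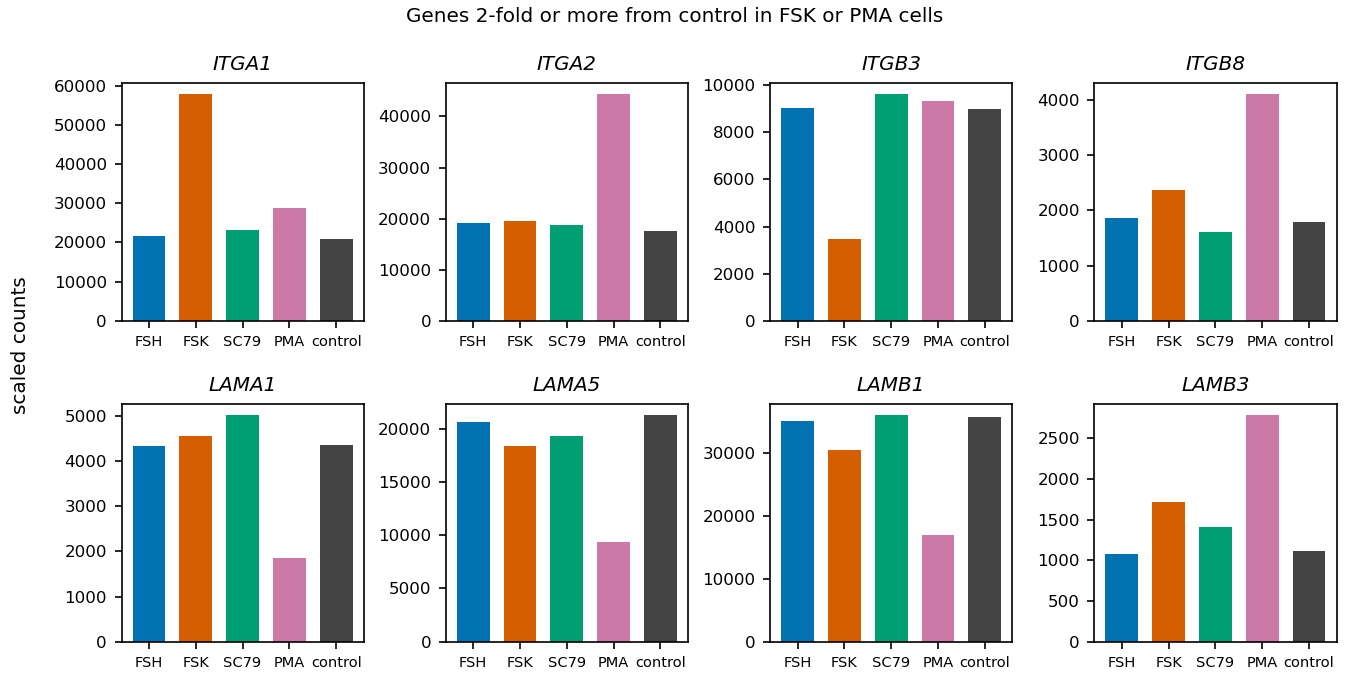
Scaled counts (each axis from 0) of the 8 genes with at least 100 scaled counts that lay 2-fold or more from control in FSK or PMA cells, 1 bar per library. ITGA1 and ITGB3 stand apart in the FSK library and ITGA2, ITGB8, LAMA1, LAMA5, LAMB1 and LAMB3 in the PMA library, while FSH and SC79 bars lie near the control bar, apart from LAMB3 in SC79 cells at 1.27-fold (95% interval 1.17 to 1.37) of control.

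The promoters of the laminin genes that lay furthest from control with PMA and have an entry in the RefSeq table are shown because LAMB3 stood above control where LAMB1 and LAMA5 stood below. Each runs from 250 bases before to 50 after a start site on GRCh38.p14, on the minus strand: chr1:209651325-209651624 for LAMB3, chr7:108003112-108003411 for LAMB1 and chr20:62367263-62367562 for LAMA5. Capitals mark 3 motifs read on either strand: TGACTCA or TGAGTCA (the AP-1 site, bound by Fos and Jun proteins), TGACG or CGTCA (the start of a CRE, contained in the full CRE TGACGTCA), and GGGCGG or CCGCCC (a GC box).
LAMB3: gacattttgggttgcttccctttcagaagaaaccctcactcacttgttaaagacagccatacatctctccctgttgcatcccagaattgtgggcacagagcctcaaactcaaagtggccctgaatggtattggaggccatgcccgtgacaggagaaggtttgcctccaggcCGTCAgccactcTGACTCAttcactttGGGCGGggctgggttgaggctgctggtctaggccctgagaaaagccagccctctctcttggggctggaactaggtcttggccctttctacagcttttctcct
LAMB1: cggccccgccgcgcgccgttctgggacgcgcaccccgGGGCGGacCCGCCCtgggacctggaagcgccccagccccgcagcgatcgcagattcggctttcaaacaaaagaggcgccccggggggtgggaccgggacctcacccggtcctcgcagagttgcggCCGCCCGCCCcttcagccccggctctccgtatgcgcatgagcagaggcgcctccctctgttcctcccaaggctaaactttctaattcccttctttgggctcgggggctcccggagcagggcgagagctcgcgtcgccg
LAMA5: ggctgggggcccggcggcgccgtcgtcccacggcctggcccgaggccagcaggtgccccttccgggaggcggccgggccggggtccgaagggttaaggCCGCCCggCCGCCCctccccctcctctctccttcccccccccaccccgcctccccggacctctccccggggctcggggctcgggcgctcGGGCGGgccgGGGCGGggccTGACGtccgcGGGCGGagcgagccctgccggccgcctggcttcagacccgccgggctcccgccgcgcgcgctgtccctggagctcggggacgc
The LAMB3 window holds an AP-1 match at -67 from the start, a CRE start at -79 and a GC box at -52. It has 3 CG dinucleotides and 53.7% G and C, where the LAMB1 window has 35 and 71.0% and the LAMA5 window 41 and 82.7%. The windows of ITGA2 and ITGB8, the integrins 2-fold or more above control with PMA, hold GC boxes and no AP-1 match, with 27 and 28 CG dinucleotides. ITGA5, at 1.33-fold of control with PMA, does hold the AP-1 letters. A window of LAMA3 holds them too, and LAMA3 lay below control with PMA, at 0.787-fold. Whether the AP-1 letters have a part in the PMA ratios was not tested. Over 35116 RefSeq windows of this length 4.95% hold the AP-1 letters, 24.6% a CRE start, 1.85% the full CRE and 45.0% a GC box. Of the 30 windows of genes of the set, 3 hold the AP-1 letters, 9 a CRE start, 0 the full CRE and 18 a GC box. These windows belong to 23 genes, some with more than 1 window, so counts of genes cannot be set beside the shares of windows. By gene, 3 (ITGA5, LAMA3 and LAMB3) hold the AP-1 letters, 6 a CRE start, 0 the full CRE and 13 a GC box. LAMB3 has 2 further windows, with CRE starts and GC boxes and no AP-1 match. The one printed was chosen after the search, for its AP-1 match. CG dinucleotides and G and C were not counted in the 2 further windows, so the printed values do not stand for LAMB3 as a whole.

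PMA cells were also set directly against FSK cells. Against FSK cells, 4 genes (ITGA2, ITGA3, ITGA5 and ITGB3) were 2-fold or more higher in PMA cells and 3 (ITGA1, ITGB6 and LAMA1) as far lower, where 6.92% of all genes were that far higher and 6.22% lower. ITGB3 in PMA cells was at 2.71-fold (95% interval 2.60 to 2.82) its FSK level, ITGA3 at 2.17-fold (95% interval 2.14 to 2.19) and ITGA5 at 2.02-fold (95% interval 1.99 to 2.06). LAMA1 was at 0.410-fold (95% interval 0.388 to 0.433) and ITGA1 at 0.497-fold (95% interval 0.490 to 0.504). ITGA1 and ITGA5 lie at the threshold and fall short of it under another scaling, ITGA1 with library totals alone (log2 ratio -0.93) and ITGA5 on the authors' normalized signal (0.95). The medians were 0.41 over the integrins and -0.55 over the laminins, beside 0.00 over all genes.

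The make-up of each chain type also differed between libraries, in shares of the scaled counts per kilobase. Of the integrin alpha chains, the collagen-binding ones (ITGA1, ITGA2, ITGA10 and ITGA11) made up 25.7% in FSH cells, 44.7% in FSK cells, 25.7% in SC79 cells, 26.1% in PMA cells and 23.4% in control cells. The laminin-binding ones (ITGA3, ITGA6 and ITGA7) made up 44.7% in FSH cells, 29.6% in FSK cells, 45.4% in SC79 cells, 44.7% in PMA cells and 46.8% in control cells. FSK cells were thus the single library in which the collagen binders had the larger share of the 2 classes. The chains that bind the RGD motif of fibronectin and vitronectin (ITGA5, ITGA8 and ITGAV) kept 24.5% in FSK cells and 28.5% in control cells. Of the integrin beta chains ITGB1 made up 72.3% in FSH cells, 83.2% in FSK cells, 67.8% in SC79 cells, 74.9% in PMA cells and 72.3% in control cells, and ITGB3 1.25% in FSK cells and 4.13% in control cells.

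Of the laminin beta chains LAMB1 made up 57.7% in FSH cells, 41.2% in FSK cells, 57.2% in SC79 cells, 34.8% in PMA cells and 59.4% in control cells. LAMB2 made up 39.8% in FSH cells, 55.5% in FSK cells, 39.6% in SC79 cells, 57.1% in PMA cells and 38.0% in control cells, the larger share of the pair in FSK and PMA cells. LAMB3 had 8.04% in PMA cells and 2.60% in control cells. With each transcript taken over its own length, LAMB1 held 34.6% and LAMB2 62.6% in FSK cells, 29.4% and 64.1% in PMA cells, and 50.7% and 47.0% in control cells. The order in FSH cells turns on that scale, with LAMB1 at 48.0% and LAMB2 at 49.9%. Of the laminin alpha chains LAMA5 made up 53.5% in FSH cells, 48.2% in FSK cells, 50.1% in SC79 cells, 38.9% in PMA cells and 55.6% in control cells. LAMA4 had 46.7% in PMA cells, against 26.6% in control cells, and was the leading alpha chain in the PMA library alone. With each transcript over its own length that lead was narrow, LAMA4 at 43.9% and LAMA5 at 43.0% in PMA cells. Beside the LAMA4 share, the 5 alpha chains together had 3369 in FSH cells, 3327 in FSK cells, 3363 in SC79 cells, 2114 in PMA cells and 3345 in control cells scaled counts per kilobase, and LAMA4 itself was at 1.11-fold control with PMA.

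**Figure D4:**
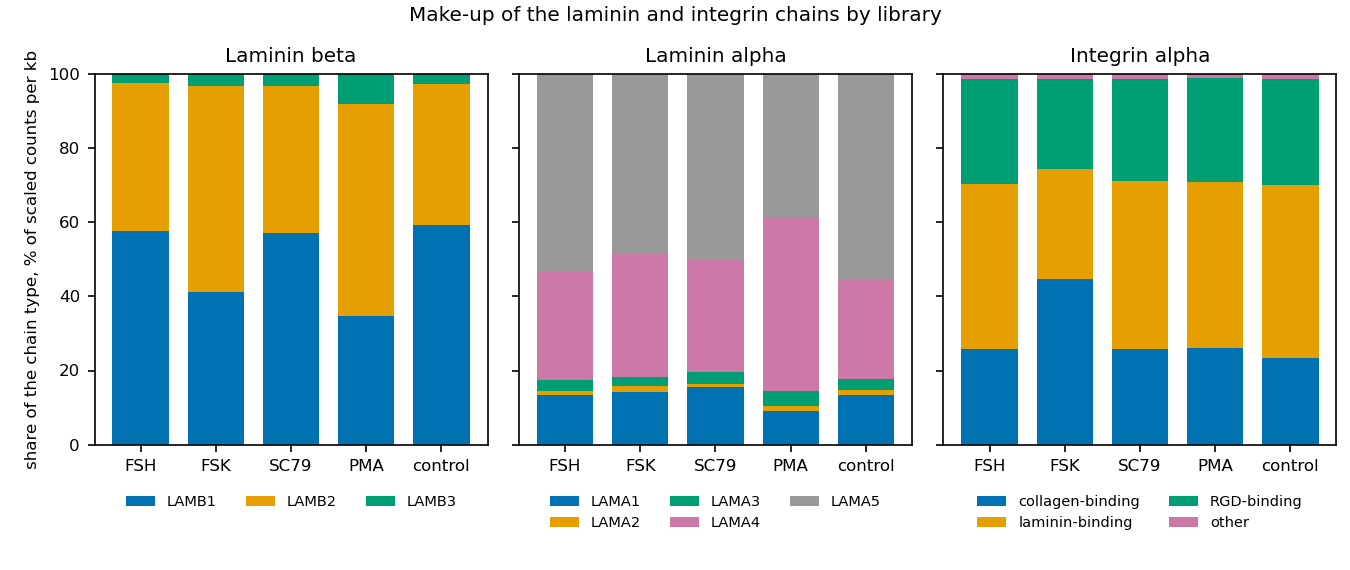
Shares (%) of the scaled counts per kilobase taken by each laminin beta chain, each laminin alpha chain and each ligand class of integrin alpha chains, 1 bar per library. LAMB2 is the largest laminin beta part in FSK and PMA cells, LAMA4 the largest laminin alpha part in PMA cells, and collagen-binding chains the largest integrin alpha part in FSK cells.

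The partner genes, from lists of proteins that bind integrins or laminins, give the setting. With PMA the basement membrane partners had a median log2 ratio of -0.72, with 0 of 16 at 2-fold or more above control and 4 as far below, beside 4.93% and 4.81% of all genes. On the authors' normalized signal 8 of the 16 were that far below, beside 1121 of all genes (734 here). SPARC, a collagen-binding matrix protein, had 88390.0 scaled counts in PMA cells and 283695 in control cells, a log2 ratio of -1.68. BCAM, a laminin receptor outside the integrin family, had 1605 scaled counts in PMA cells and 4561 in control cells, a log2 ratio of -1.51. FRAS1, which anchors the epithelial basement membrane, had 2085 scaled counts in PMA cells and 8454 in control cells, a log2 ratio of -2.02, and COL15A1, a basement membrane collagen, had 118 scaled counts in PMA cells and 540.4 in control cells, a log2 ratio of -2.18. With FSK 3 of the 16 lay 2-fold or more above control and 0 as far below, beside 5.23% and 6.17% of all genes, the median being 0.22. These were the type IV collagen chains COL4A6, with 3772 scaled counts in FSK cells and 1349.7 in control cells, a log2 ratio of 1.48, and COL4A5, with 9035 scaled counts in FSK cells and 3664 in control cells, a log2 ratio of 1.30, and NID2, a nidogen that links laminin to type IV collagen, with 4844 scaled counts in FSK cells and 2362 in control cells, a log2 ratio of 1.04. At 1.5-fold the counts with FSK were 3 above, the same genes, and 1 below, beside 11.1% and 12.2% of all genes. The type IV collagen chains COL4A1 and COL4A2, also on the list, were not among those above. Type IV collagen is a ligand of the receptor with ITGA1, but whether the COL4A5 and COL4A6 chains bind it was not tested.

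Of 28 other integrin ligands, 2 were 2-fold or more above control and 4 as far below with FSK, and 3 above and 5 below with PMA; the shares of all genes are those just given. On the authors' normalized signal these counts were 1 and 7 with FSK and 3 and 7 with PMA. Over all genes that signal gave 622 and 1235 with FSK and 534 and 1121 with PMA. VTN, vitronectin, the ligand of the ITGAV receptors with ITGB3 and ITGB5, had 7300.1 scaled counts in FSK cells and 1033 in control cells, a log2 ratio of 2.82. VCAM1, a ligand of ITGA4, had 1634 scaled counts in FSK cells and 4839 in control cells, a log2 ratio of -1.57. With PMA, VCAM1 had 1425 scaled counts in PMA cells and 4839 in control cells, a log2 ratio of -1.76. TNC, tenascin C, a ligand of ITGA9 and other integrins, had 7809 scaled counts in FSK cells and 22552 in control cells, a log2 ratio of -1.53. With PMA the collagens COL1A1 and COL3A1, ligands of ITGA2 and ITGA11, differed likewise: COL1A1 had 276866 scaled counts in PMA cells and 768295 in control cells, a log2 ratio of -1.47, and COL3A1 had 32915 scaled counts in PMA cells and 125516 in control cells, a log2 ratio of -1.93. SPP1, osteopontin, an RGD ligand, had 231 scaled counts in PMA cells and 18.4 in control cells, a log2 ratio of 3.58.

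Inside the cell, 34 genes of focal adhesion proteins had a median log2 ratio of -0.42 with FSK and of 0.02 with PMA. With FSK 0 lay 2-fold or more above control and 6 as far below, beside 5.23% and 6.17% of all genes. With PMA 3 lay above and 1 below, beside 4.93% and 4.81%. On the authors' normalized signal these counts were 0 and 8 with FSK and 2 and 1 with PMA. VCL, vinculin, which ties talin to actin, had 34644 scaled counts in FSK cells and 71611 in control cells, a log2 ratio of -1.05. PXN, the adhesion scaffold paxillin, had 6134 scaled counts in FSK cells and 12411 in control cells, a log2 ratio of -1.02. TNS3, a tensin that binds beta chain tails, had 32213 scaled counts in PMA cells and 11586 in control cells, a log2 ratio of 1.48. VCL, PXN and TNS3 are not the extremes of the list. Its log2 ratios ran from -1.42 to 0.31 with FSK and from -1.87 to 1.97 with PMA. Of 18 integrin-associated membrane proteins, 0 were 2-fold or more above and 3 below with FSK, where 5.23% and 6.17% of all genes were called. With PMA 4 were above and 1 below, where 4.93% and 4.81% of all genes were called. Log2 ratios of the 18 ran from -1.41 to 0.63 with FSK and from -1.03 to 2.62 with PMA. On the authors' normalized signal the counts were 0 and 4 with FSK and 3 and 3 with PMA. Among these MMP14, a membrane collagenase, had 58859.7 scaled counts in PMA cells and 15556 in control cells, a log2 ratio of 1.92; PLAUR, the urokinase receptor, had 10494 scaled counts in PMA cells and 1701 in control cells, a log2 ratio of 2.62; and the tetraspanin CD9 had 29765 scaled counts in PMA cells and 11018 in control cells, a log2 ratio of 1.43. Of 4 hemidesmosome genes with ratios, 0 passed 2-fold in either direction with FSK or PMA. With FSH 0 genes of any of these 5 lists passed 2-fold; with SC79 SPP1 did, at 53.0 scaled counts in SC79 cells and 18.4 in control cells, a log2 ratio of 1.48, and COL17A1, a hemidesmosome collagen, at 7.42 scaled counts in SC79 cells and 27.5 in control cells, a log2 ratio of -1.76.

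**Figure D5:**
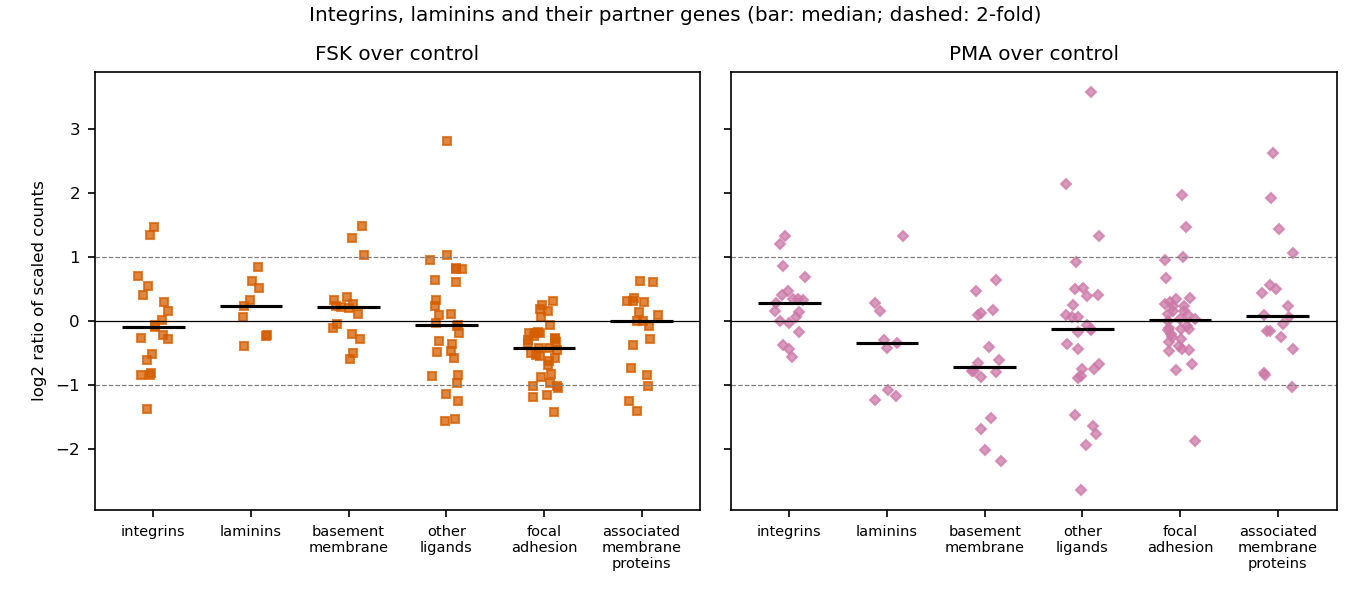
Log2 ratio over control of each integrin and laminin gene and of each gene of 4 partner lists, in FSK cells (left) and PMA cells (right); bars are medians and dashed lines mark 2-fold. With FSK the focal adhesion list has the lowest median, at -0.42, and with PMA the basement membrane list, at -0.72, with the laminins next at -0.35.

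The remaining genes lay within 2-fold of control or were low. ITGAV lay within 26071 to 31172 scaled counts and ITGA4 within 1129.7 to 1392. LAMA3 lay within 854 to 1117, and 84.6% of it in control cells was on the long form LAMA3-202. ITGAE, the E-cadherin receptor chain of intraepithelial lymphocytes, had 664 to 881 scaled counts, of which only 12.2% to 25.4% were on coding transcripts. Its coding transcript ITGAE-201 had 105 in FSH cells, 85.5 in FSK cells, 111 in SC79 cells, 219.7 in PMA cells and 84.3 in control cells, and its log2 ratio with PMA was 1.37, so that on coding transcripts alone ITGAE too was 2-fold or more above control. ITGB2, the beta chain of leukocyte integrins, had 23.0 to 47.5, and ITGA9, a tenascin receptor chain, 24.1 to 44.1. Below 20 scaled counts in all 5 libraries were ITGA8, a nephronectin receptor chain, with 7.41 in FSH cells, 2.09 in FSK cells, 3.37 in SC79 cells, 4.21 in PMA cells and 2.89 in control cells; ITGB7, a lymphocyte beta chain, with 2.97 to 15.7; and LAMC3, a gamma chain, with 2.12 to 11.9.

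In the authors' deposited table, which gives a log2 fold change and an adjusted p-value per transcript, transcripts of these genes were also called. Of 333, the authors' deposited table has 7 with FSH, 12 with FSK, 9 with SC79 and 15 with PMA at an adjusted p under 0.05, beside 1.8%, 2.2%, 1.84% and 2.17% of all 179973 transcripts in it. These are 2.1%, 3.6%, 2.7% and 4.5% of the 333. None of these (0 in each comparison) was the most abundant transcript of its gene, and in each the library with fewer counts had at most 0.114 scaled counts of that transcript. Among the most abundant transcripts of the 31 genes, the smallest adjusted p in the authors' deposited table was 1 with FSH, 0.571 with FSK, 0.426 with SC79 and 0.359 with PMA. How the authors set the spread with 1 library a group is not given in the sources used here.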

How the data were processed

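Reads were trimmed with Trimmomatic, quantified with kallisto and analysed with edgeR, per the submitters' processing notes, which name no versions; which transcript index and genome build they used is not given in the sources used here. The authors deposited estimated counts per transcript, per the file headers. A normalized signal is deposited too: each library's estimated counts times 1 constant (0.934 to 1.03). The other deposited table gives the authors' log2 fold changes, p-values and adjusted p-values per transcript, LH included, a treatment with no library among the 5 used here.

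Gene sums add up the estimated counts of all transcripts with 1 gene name; 303 transcripts have none and were left out. Library sizes were scaled by TMM (edgeR 4.0.16, R 4.3.3) on sums rounded to whole numbers, with factors of 0.976 to 1.03. Log2 ratios used a pseudocount of 1, and genes needed 20 scaled counts in any library. Intervals are exact conditional binomial (Clopper-Pearson) 95% intervals of the ratio and reflect counting error alone: without molecular identifiers, reads of 1 molecule cannot be told from reads of several. With 1 library a group no p-value was computed; a gene was called at 2-fold or more. Other steps used scipy 1.17.1, pandas 2.3.3, numpy 2.4.6 and matplotlib 3.10.9 under Python 3.11.15, and were tested on simulated data.

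The genes and the partner lists were chosen with earlier results of these data known. Values in all libraries are given for genes 2-fold or more from control in any treatment and for the most abundant per length; other genes are named only from the partner and marker lists, chosen after their values were seen. Lengths, positions and exons are from GENCODE 29 (GRCh38), to which 332 of 333 transcripts of the 31 genes matched with version, and promoter windows are from RefSeq on GRCh38.p14. Levels per length divide a gene's sum by the length of its most abundant coding transcript. Alternatives were DESeq2 1.42.0 size factors, library totals, the authors' signal, pseudocounts of 0.5 and 5, other count minimums, coding transcripts only, sums with overlapping or copied genes and other lengths.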

Additional observations from a re-analysis of the deposited data

Results flagged for a closer look

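ITGB1P1, a processed pseudogene copied from ITGB1 and not one of the 31 genes, had 811 scaled counts in FSH cells, 0.411 in FSK cells, 1057 in SC79 cells, 710.2 in PMA cells and 0 in control cells, a signal absent from the control library. Against a floor of 3 counts in the control library it was at least 294-fold higher with FSH, at least 384-fold with SC79 and at least 258-fold with PMA. These counts come to 0.576% of ITGB1 in FSH cells, 0.810% in SC79 cells and 0.392% in PMA cells. Of the 31-base words of ITGB1, 9.36% also occur in the transcript of that pseudogene, which GENCODE 29 names AC022149.1, and the part of read assignment between them was not tested.

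No LH library is among the 5, so its values stand only as deposited. For the most abundant transcript of each gene, 12 genes had an LH log2 fold change of 1 or more in size in the authors' deposited table, and none had an adjusted p under 0.05 there. In the authors' deposited table LAMB3 was at 1.39, ITGB6 at 1.18 and ITGA2 at 1.12, all above control. In the authors' deposited table ITGA9 was at -1.70, ITGAV at -1.64, ITGAE at -1.57, LAMA5 at -1.24, LAMA1 at -1.18, LAMA3 at -1.13, ITGB4 at -1.10, LAMB1 at -1.05 and ITGA7 at -1.003. The smallest adjusted p among the most abundant transcripts with LH was 0.843 in the authors' deposited table.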

How the results depend on the processing

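No paired analysis was possible because each group has 1 library; for the same reason no library could be left out. DESeq2 size factors and pseudocounts of 0.5 and 5 kept all 140 ratios of the 28 genes (5 comparisons) within their counting intervals, whereas 43 left theirs with library totals and 108 with the authors' normalized signal; no ratio of 2-fold or more changed sign under any setting run. On the authors' signal the 31 genes gave 3 below control with FSK and, for PMA against FSK, 5 below; over all genes 175 were below with FSH, 78 above and 235 below with SC79, and 1121 below with PMA. A pseudocount of 5 gave, over all genes, 58 below with FSH, and 96 above and 57 below with SC79. With 1 scaled count as the minimum, 1 of the 31 genes (ITGA8) was above and 1 (LAMC3) below with FSH, 1 (LAMC3) below with SC79 and 5 below with PMA, ITGB7 and LAMC3 joining. Over all genes that minimum gave 1272 above and 1104 below with FSH, 2737 and 2018 with FSK, 2082 and 1072 with SC79, 2098 and 1769 with PMA, and 2347 and 2966 for PMA against FSK. Requiring 100 scaled counts in the higher library left 1 gene of the set above with FSK (ITGA1), and over all genes 521 above with FSK, 38 above and 13 below with FSH, 28 and 5 with SC79, and 460 and 458 with PMA. Coding transcripts alone gave 1 above with FSK (ITGA1) and 1 below with SC79 (ITGB2), added ITGAE above with PMA (4 genes) and for PMA against FSK (5 genes), and moved 20 member ratios out of their intervals. Summing ITGB1 with its pseudogene moved 1 of its 5 ratios out of its interval. The 2 settings with overlapping genes and transcript lengths were chosen after seeing the data. Depth limits ITGB6, ITGA9, ITGB2 and ITGA10 most, the 4 genes with ratios and the fewest scaled counts.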
